A study of Homo sapiens with 10 samples.

Results

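Acetylation of histone H3 at lysine 27 (H3K27ac), a mark of active promoters and enhancers, was examined around Fn14 (TNFRSF12A), its ligand TWEAK (TNFSF12) and 8 other receptors of the tumour necrosis factor (TNF) family. The 10 genes, of 19970 protein-coding genes in all, were TNFRSF12A, TNFSF12, TNFRSF1A, TNFRSF1B, LTBR, TNFRSF10A, TNFRSF10B, TNFRSF21, TNFRSF11A and TNFRSF11B. For each gene, the window was its GENCODE gene body plus 50 kb on each side, and every H3K27ac peak overlapping a window was taken. Merging the peaks of all libraries where they overlapped gave 70 regions in these windows, of 76044 in the genome. The windows of TNFRSF1A and LTBR, neighbours on chromosome 12, shared 8 of the regions, so these genes are not independent of each other. In the hg38 build, which all coordinates here use, TNFRSF12A lies at chr16:3018445-3022383 and TNFSF12 at chr17:7548508-7557890. TNFRSF1A lies at chr12:6328757-6342114, LTBR at chr12:6375045-6391571, TNFRSF1B at chr1:12166991-12209228 and TNFRSF21 at chr6:47231532-47309905. TNFRSF10A, at chr8:23190452-23225102, and TNFRSF10B, at chr8:23020133-23069031, are on the same arm of chromosome 8, TNFRSF11B is at chr8:118923557-118951885 and TNFRSF11A at chr18:62325287-62391288.

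The libraries came from SKBR3 and MDA-MB-453, established breast cancer cell lines of the HER2 class, each with 2 untreated and 2 TWEAK-treated libraries. All cells first spent 8 h in reduced-serum medium, and the treated cells then received TWEAK (10 ng/ml) over 48 h, renewed after 24 h. The study's methods describe cell line ChIP-seq as done in biological replicates, while no label says which culture a library came from, and p-values measure the spread between these libraries. The lists held 43684 to 51687 peaks in SKBR3 and 36148 to 37813 in MDA-MB-453, covering 92.1 to 106 Mb and 70.5 to 72.1 Mb. The share of peaks with a q-value under 1e-05 was 39.4% to 52.6% in SKBR3 and 59.8% to 63.8% in MDA-MB-453. Replicates of SKBR3 were farther apart, with a root mean square SD of 10.9 (untreated) and 12.4 (TWEAK) percentile points per region, than those of MDA-MB-453, with 5.19 and 5.2. SKBR3 untreated replicate 1 had the lowest share of strong peaks, and SKBR3 TWEAK replicate 2 had the longest list. Of 9 luminal epithelial and HER2 marker genes, 9 had a promoter peak in every MDA-MB-453 list and 8 in every SKBR3 list, with the promoter of CDH1 (E-cadherin) at 0 SKBR3 lists. None of 4 leukocyte marker promoters held a peak in any list. Of the endothelial markers, PECAM1 had no promoter peak and CDH5 had one in all lists. Of 5 basal or mesenchymal markers, VIM and ZEB1 had a promoter peak in 4 MDA-MB-453 and 3 SKBR3 lists each. KRT5 went the other way, marked in 2 SKBR3 lists but never in MDA-MB-453. The promoters of KRT14 and CDH2 were without a peak in both lines. The libraries are bulk, so acetylation in fewer cells and less acetylation per cell cannot be told apart.

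TNF family ligands bind receptors with cysteine-rich extracellular domains. Fn14 has a short cytoplasmic tail that recruits TRAF adaptors, through which TWEAK activates the canonical and non-canonical NF-κB pathways and MAP kinases. LTBR, the lymphotoxin β receptor, is another well-known activator of the non-canonical pathway. TNFRSF1A (TNFR1), the TRAIL receptors TNFRSF10A (DR4) and TNFRSF10B (DR5), and TNFRSF21 (DR6) carry a death domain, whereas TNFRSF1B (TNFR2) and TNFRSF11A (RANK) signal through TRAFs without one. TNFRSF11B (osteoprotegerin) is a secreted decoy receptor for RANK ligand and TRAIL.

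Promoter sequences are shown to set the presence of a promoter peak beside their CpG content. RefSeq promoters (GRCh38.p14) matched 5 of the 10 genes, TNFRSF1A, LTBR, TNFRSF21, TNFRSF1B and TNFRSF11A; TNFRSF12A, TNFSF12, TNFRSF10A, TNFRSF10B and TNFRSF11B had no entry. Each stretch runs 5′ to 3′ on the strand of the gene, up to 250 bases before the RefSeq start and without bases annotated as untranslated region, and capitals mark CG dinucleotides.
TNFRSF1A (chr12:6342115-6342326, minus strand): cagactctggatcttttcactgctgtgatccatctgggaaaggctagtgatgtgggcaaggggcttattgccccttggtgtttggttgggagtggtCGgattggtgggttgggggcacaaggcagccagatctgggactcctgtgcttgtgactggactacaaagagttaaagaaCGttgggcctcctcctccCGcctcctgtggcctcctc
LTBR (chr12:6383912-6384161, plus strand): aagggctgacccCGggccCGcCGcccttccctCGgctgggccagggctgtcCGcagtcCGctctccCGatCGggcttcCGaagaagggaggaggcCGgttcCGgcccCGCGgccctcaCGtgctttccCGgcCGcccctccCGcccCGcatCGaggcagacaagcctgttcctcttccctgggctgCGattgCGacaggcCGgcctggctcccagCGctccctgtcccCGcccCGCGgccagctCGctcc
TNFRSF21 (chr6:47309906-47310155, minus strand): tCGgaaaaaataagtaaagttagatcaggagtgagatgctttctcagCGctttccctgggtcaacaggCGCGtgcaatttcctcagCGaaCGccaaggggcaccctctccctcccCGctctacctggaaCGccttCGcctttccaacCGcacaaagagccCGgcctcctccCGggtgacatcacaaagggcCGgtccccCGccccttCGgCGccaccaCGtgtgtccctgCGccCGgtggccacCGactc
TNFRSF1B (chr1:12166741-12166990, plus strand): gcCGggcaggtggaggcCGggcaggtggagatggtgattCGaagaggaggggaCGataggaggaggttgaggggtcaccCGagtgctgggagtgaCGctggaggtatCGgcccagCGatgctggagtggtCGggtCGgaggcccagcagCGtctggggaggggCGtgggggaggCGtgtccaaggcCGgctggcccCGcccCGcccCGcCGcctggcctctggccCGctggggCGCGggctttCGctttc
TNFRSF11A (chr18:62325060-62325286, plus strand): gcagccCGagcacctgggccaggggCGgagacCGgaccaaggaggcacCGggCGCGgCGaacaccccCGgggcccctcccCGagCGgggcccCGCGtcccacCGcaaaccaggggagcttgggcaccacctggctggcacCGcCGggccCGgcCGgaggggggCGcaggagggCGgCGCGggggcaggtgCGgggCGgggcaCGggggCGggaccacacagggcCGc

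In the whole 300-base promoter, from 250 bases before to 50 after the start, TNFRSF1A held 4 CG dinucleotides and LTBR held 29, and both had a promoter peak in all 8 lists. TNFRSF1B and TNFRSF11A held 27 and 37, and neither had a promoter peak in any list. TNFRSF21, at 23 CG dinucleotides, had weak peaks in 7 of the lists. The median over 15315 protein-coding promoters was 22. Neither the NF-κB motif nor the AP-1 motif (TGACTCA or TGAGTCA) was found in these 5 promoters on either strand, against 6.37% and 3.68% of all promoters.

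Promoter peaks divided the genes into those marked in both lines and those marked in neither. A promoter peak was one within 1 kb of any annotated start site, and its rank is given as the percentile of its score within its own list, from 0 (no peak) to 100 (strongest). TNFRSF12A, TNFRSF1A, LTBR, TNFRSF10A and TNFRSF10B had a promoter peak in all 8 lists. TNFRSF21 had one in 3 SKBR3 and 4 MDA-MB-453 lists. TNFSF12, TNFRSF1B, TNFRSF11A and TNFRSF11B had none in any list.

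**Figure D1:**
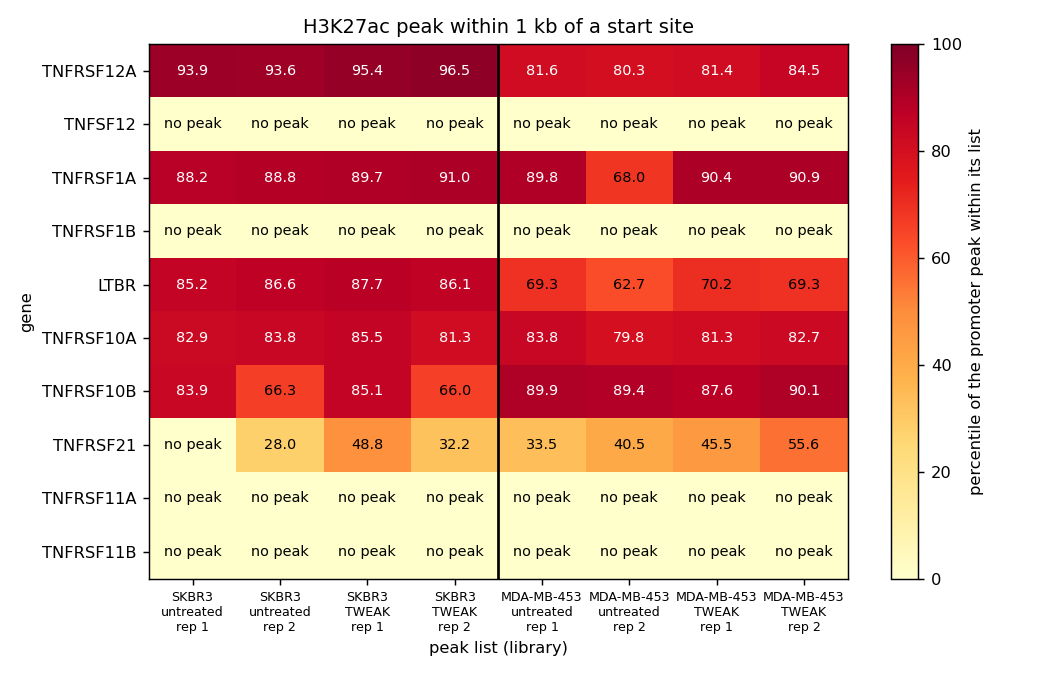
Percentile of the strongest H3K27ac peak within 1 kb of a start site, for 10 genes (rows) in 8 peak lists (columns); darker cells are higher ranks, and cells without a peak say so. TNFRSF12A lies between 93.6 and 96.5 in SKBR3 and between 80.3 and 84.5 in MDA-MB-453, and 4 genes have no promoter peak in any list.

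Fn14 ranked among the strongest peaks of SKBR3 and lower in MDA-MB-453. The TNFRSF12A promoter peak was at the 93.9th and 93.6th percentile in untreated and the 95.4th and 96.5th in TWEAK-treated SKBR3, and at 81.6 and 80.3 in untreated and 81.4 and 84.5 in TWEAK-treated MDA-MB-453. The lines did not overlap, and the mean difference was 12.9 points (exact two-sided permutation test, 4 against 4, p = 0.0286, the smallest this design allows). In the fit over 52751 regions (limma on the percentile, Benjamini-Hochberg adjusted), the difference for this region, chr16:3019554-3025503, was 12.9 ± 0.96 (SE; adjusted p = 5.78e-05). The peak began 1.11 to 1.57 kb inside the 5′-most start of TNFRSF12A and ran 6.35 to 7.06 kb from it, past the end of the gene. The region also lay within 1 kb of start sites of CLDN6, HCFC1R1 and THOC6, so its rank cannot be assigned to Fn14 alone. Its width was 4869 to 5950 bp in SKBR3 and 4778 to 4936 bp in MDA-MB-453, and these ranges overlapped.

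LTBR was higher in SKBR3 in rank and most of all in width. Its promoter peak ranked at 85.2 and 86.6 (untreated) and 87.7 and 86.1 (TWEAK) in SKBR3, against 69.3, 62.7, 70.2 and 69.3 in the MDA-MB-453 libraries in the same order. The peaks at its promoters spanned 20511 to 28593 bp in SKBR3 and 1503 to 2101 bp in MDA-MB-453. Both measures were without overlap between lines (exact p = 0.0286 for each), while fold enrichment overlapped (exact p = 0.171). Ranks were those of the strongest peak, and spans were summed over peaks. In SKBR3 both drew on a peak over SCNN1A that reached the 5′-most LTBR promoter, so they cannot be assigned to LTBR alone. At the other promoter region, chr12:6382780-6394415, ranks were 78.2 to 87.7 in SKBR3 and 62.7 to 70.2 in MDA-MB-453. Peaks there covered 6083 to 10546 bp and 1503 to 2101 bp.

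The death receptors were less uniform. TNFRSF1A was at 88.2, 88.8, 89.7 and 91.0 in SKBR3 and at 89.8, 68.0, 90.4 and 90.9 in MDA-MB-453, with overlap (exact p = 0.886). The low value, of MDA-MB-453 untreated replicate 2, arose where the strongest peak over the gene did not reach within 1 kb of a start site, and over the whole region, chr12:6329695-6342853, this library stood at 89.8. TNFRSF1A peaks were nonetheless wider in SKBR3, at 11063 to 13159 bp against 3861 to 8335 bp. TNFRSF10A (DR4) had nearly equal ranks, 81.3 to 85.5 in SKBR3 and 79.8 to 83.8 in MDA-MB-453 (exact p = 0.2), but narrower peaks in SKBR3, at 3012 to 3458 bp against 4325 to 4826 bp. Its fold enrichment was also lower in SKBR3 without overlap, at 7.49 to 10.5 against 11.9 to 15.0 (exact p = 0.0286).

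TNFRSF10B (DR5) was the 1 gene of the 6 with a promoter peak whose rank was lower in SKBR3 without overlap. It stood at 83.9 and 66.3 in untreated and 85.1 and 66.0 in TWEAK-treated SKBR3, and at 87.6 to 90.1 in MDA-MB-453. The SKBR3 values split by replicate number rather than by treatment, with both replicate 1 libraries between 83.9 and 85.1 and both replicate 2 libraries between 66.0 and 66.3. The line difference of −13.9 ± 5.4 points had an exact p of 0.0286 but an adjusted p of 0.0584 in limma, which pools the spread over all groups. TNFRSF21 (DR6) was weak and variable, with no peak and a peak at 27.99 in untreated SKBR3, 48.8 and 32.2 with TWEAK, and 33.5 to 55.6 in MDA-MB-453. Between the lines its ranks overlapped.

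In all, 3 of 6 promoters (TNFRSF12A, LTBR and TNFRSF10B) did not overlap between lines in rank, where 59.3% of all promoters with a peak did not. In width it was 4 of 6 (TNFRSF1A, LTBR, TNFRSF10A and TNFRSF10B), against 57.3%. Among all promoters with a peak, most likewise did not overlap between the lines.

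For the 4 genes without a promoter peak, the nearest peak lay at very different distances. TNFSF12 had one at 1.27 to 1.81 kb from a start site in every list, in a region (chr17:7557307-7563759) that is also at the promoters of TNFSF13 (APRIL) and SENP3. TNFRSF11B had one at 2.16 to 10.5 kb in SKBR3 and 3.72 to 3.88 kb in MDA-MB-453. The distance was 2.12 to 22.4 kb in SKBR3 and 22.3 to 22.5 kb in MDA-MB-453 for TNFRSF1B, and 30.4 to 62.8 kb and 62.5 to 62.6 kb for TNFRSF11A. Among these 4 genes RANK had the most distant acetylation in both lines, and the gene body of TNFRSF1B was without a peak in all 8 lists.

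Most of the regions in the windows were away from the promoters of the 10 genes: 7 lay at a promoter of one of them, 23 at promoters of other genes only and 40 at none. A total of 29 regions were in all 8 lists. SKBR3 alone held 31 regions, MDA-MB-453 alone held 2, and 37 were listed in both. Of the 31, 15 were in a single list. Over the genome the SKBR3 lists also merged into more regions, 62104 against 42831 in MDA-MB-453, with 68 and 45 in the windows. The share of all regions listed in 1 line only is not given here. Present in all 4 lists of one line and none of the other were 7 regions for SKBR3, where 14.1% of all regions were, and 1 for MDA-MB-453, where 10.5% were. Per library the windows held 58 to 61 peaks in SKBR3 and 43 to 45 in MDA-MB-453.

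Ranks were higher in SKBR3 at 32 of the 53 regions that could be tested (42.5% of all 52751 tested) and lower at 8 (29.9%), while 13 did not pass the test (limma, adjusted p). The other 17 regions fell under a mean percentile of 5 and were not tested. A region absent from every list of a line passed this filter only through the other line. Its values at 0 add no spread to the SE, which limits the adjusted p of each such region below. The median difference was 16.3 points over the tested regions of the windows and 10.4 over all regions, with a region without a peak counted as 0. With the lists cut to equal size, 26 regions were higher and 12 lower in SKBR3, and the share of all regions in this setting is not given. The 8 lower regions were 5 without SKBR3 untreated replicate 1, MDA-MB-453 untreated replicate 1 or either MDA-MB-453 TWEAK library, and 4 without MDA-MB-453 untreated replicate 2.

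**Figure D2:**
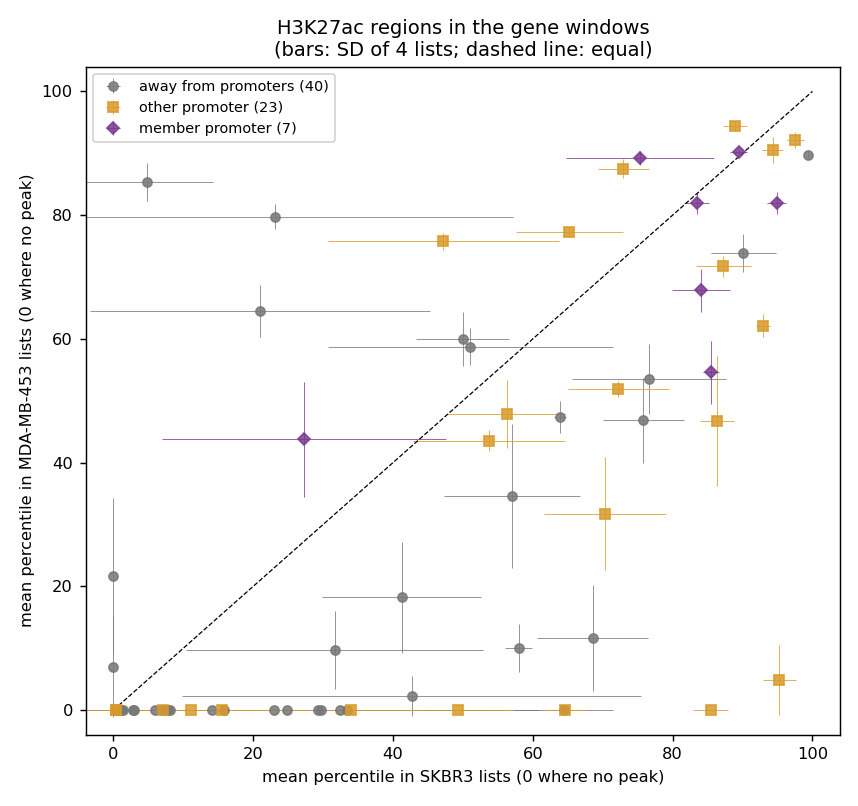
Mean percentile of each of the 70 regions in the 4 SKBR3 lists (horizontal) and the 4 MDA-MB-453 lists (vertical), with SD bars; purple diamonds are promoters of the 10 genes, orange squares promoters of other genes and grey circles neither. The 31 regions listed in SKBR3 only lie on the horizontal axis, and the TNFRSF11B region at 82.9 to 89.4 in MDA-MB-453 is the highest point at the left.

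Around Fn14, the largest differences were at neighbouring genes. The region chr16:2985159-2987377, at a promoter of GREP1 and 31.1 kb from TNFRSF12A, ranked at 45.7, 56.1, 55.2 and 40.1 in SKBR3 and was in no MDA-MB-453 list (difference 49.3 ± 4.2, adjusted p = 0.000108). At chr16:3003130-3013519, a merged region that reached the promoter of the tight junction gene CLDN9, SKBR3 stood at 84.2 to 89.1 and MDA-MB-453 at 32.4 to 57.6 (39.6 ± 4.3, adjusted p = 0.000327). The peaks there covered 8587 to 10268 bp in SKBR3 and 2261 to 2499 bp in MDA-MB-453. From the TNFRSF12A start, CLDN9 began at −5.52 kb, and the nearest MDA-MB-453 peaks of this region ended at −7.77 to −7.52 kb. MDA-MB-453 thus had no peak at the CLDN9 promoter, and its ranks came from elsewhere in the region. The strongest peak of SKBR3 untreated replicate 1 also ended short of CLDN9, at −7.09 kb. The window thus held 7 regions higher and 3 lower in SKBR3 of 11 tested. The 3 lower ones were at PAQR4, PKMYT1 and BICDL2.

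At TNFRSF1A and LTBR, the gene bodies were marked in both lines, and the regions with the 2 largest differences were stronger in SKBR3. The region chr12:6305521-6315260, at the PLEKHG6 promoter and 13.5 kb past the end of TNFRSF1A, ranked at 96.4, 91.8, 96.9 and 95.9 in SKBR3, was absent from both untreated MDA-MB-453 lists and stood at 9.68 and 9.91 with TWEAK (90.3 ± 2.2, adjusted p = 1.76e-06). Between the genes, at chr12:6360334-6378380, a merged region over SCNN1A (a subunit of the epithelial sodium channel) and the 5′-most LTBR promoter ranked at 84.1 to 86.6 in SKBR3 and 50.1 to 60.9 in MDA-MB-453. Its peaks spanned 16875 to 18047 bp in SKBR3 and 771 to 1059 bp in MDA-MB-453. The MDA-MB-453 peaks lay inside SCNN1A. Along the forward strand from the TNFRSF1A start they ended at 29.0 kb or before, and LTBR began at 32.9 kb. They thus did not reach the 5′-most LTBR promoter. On the far side of LTBR, chr12:6420222-6421018 was in SKBR3 lists only, at 13.3 to 44 (29.3 ± 7.7, adjusted p = 0.0151). In the other direction, chr12:6318080-6325042, also at a PLEKHG6 promoter, ranked at 87.8 to 91.6 in SKBR3 and 93.8 to 95.6 in MDA-MB-453 (−5.45 ± 1.01, adjusted p = 0.00361). The highest region by mean in the TNFRSF1A window, chr12:6275722-6281444, lay outside protein-coding genes 47.3 kb from TNFRSF1A and ranked at 99.1 to 99.4 in SKBR3 and 89.3 to 90.2 in MDA-MB-453.

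**Figure D3:**
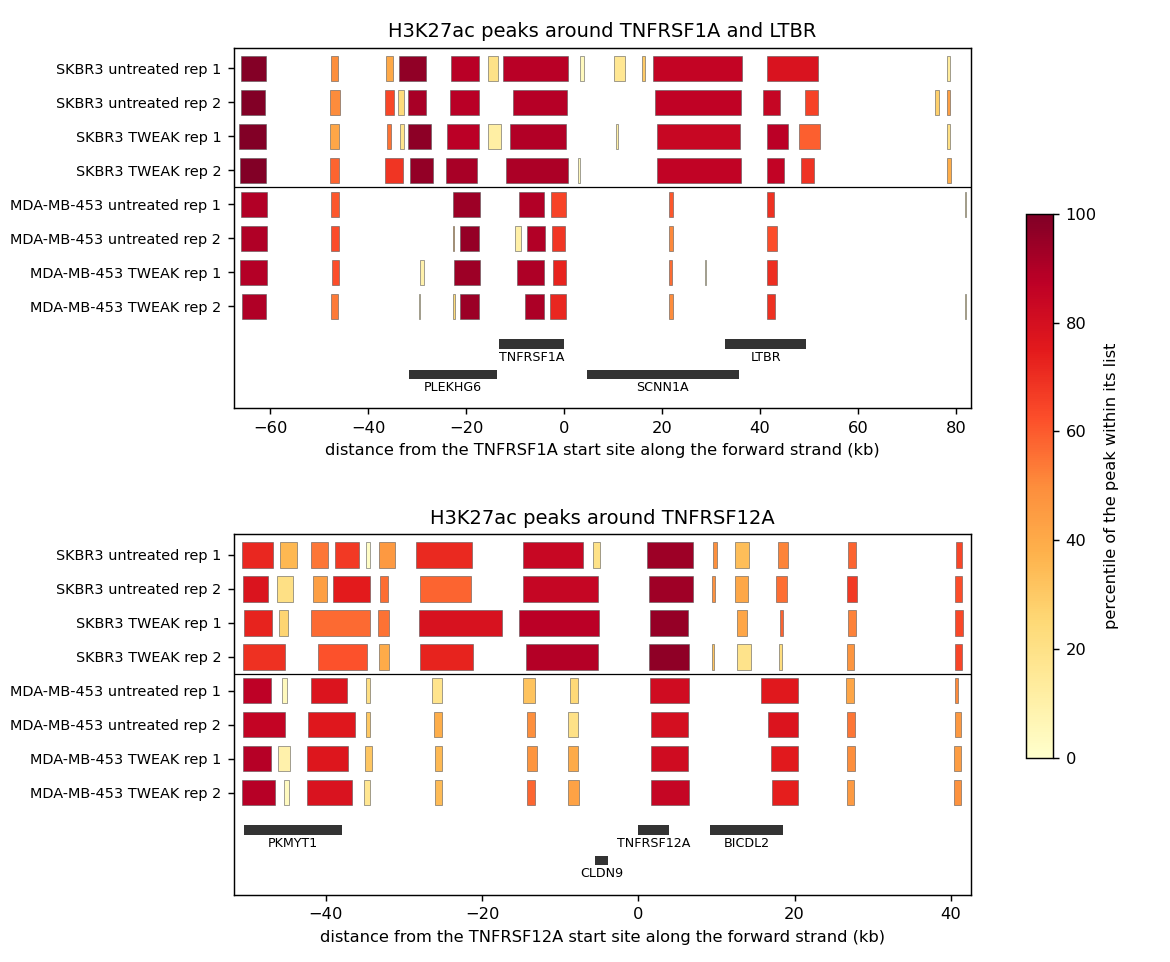
H3K27ac peaks in each of 8 libraries (rows) by distance in kb from the start site of TNFRSF1A (top) and TNFRSF12A (bottom), coloured by percentile within the list; black bars below are named genes. SKBR3 has a peak of 16875 to 18047 bp between TNFRSF1A and LTBR where MDA-MB-453 has 771 to 1059 bp, and the untreated and TWEAK libraries of a line have most peaks at the same places.

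The window of TNFRSF10B held 5 regions higher in SKBR3 and 0 lower of 8 tested. At chr8:23018289-23021542, which reaches the 3′ end of TNFRSF10B, SKBR3 stood at 59.7 to 77.6 and MDA-MB-453 at 0 to 20.0 (56.9 ± 5.9, adjusted p = 0.000269). Near TNFRSF10A, chr8:23161200-23162009 in an intron of the decoy receptor TNFRSF10D was listed in SKBR3 only, at 16.9 to 43.5 (29.6 ± 5.2, adjusted p = 0.00286). The TNFRSF10A window held 4 regions higher in SKBR3 and 0 lower of 5 tested, and the promoter region of DR4 was the 1 that did not pass (adjusted p = 0.37).

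Osteoprotegerin was the gene with more acetylation in MDA-MB-453. At chr8:118877287-118879960, 43.6 kb beyond the 3′ end of TNFRSF11B, MDA-MB-453 ranked at 82.9, 83.2, 89.4 and 85.9, and SKBR3 had no peak in 3 lists and 19.0 in TWEAK replicate 2 (difference −80.6 ± 4.5, adjusted p = 1.62e-05). At chr8:118955601-118958120, 3.72 kb upstream of the gene, MDA-MB-453 stood at 77.6 to 81.9, while SKBR3 had no peak in either replicate 1 library and 20.6 (untreated) and 72.0 (TWEAK) in the replicate 2 libraries. A neighbouring region, chr8:118961258-118962688, was likewise in both replicate 2 libraries of SKBR3, at 40.4 and 43.7, and in neither replicate 1 library. These SKBR3 values separated by replicate number, not by treatment. In the other direction, chr8:118914128-118915145, 8.41 kb past the 3′ end, was in all SKBR3 lists at 56.6 to 73.8 and in no MDA-MB-453 list (64.4 ± 4.0, adjusted p = 2.67e-05). Its fold enrichment in SKBR3 was only 2.49 to 3.10, low for such ranks. In SKBR3 untreated replicate 1 its 2.49 ranked at 63.3, while 2.58 at chr1:12242537-12243096 ranked at 1.57. Rank can therefore overstate the enrichment of this region, and the cause was not tested. The highest region by mean, chr8:118940428-118942112 in an intron of TNFRSF11B, did not differ in rank beyond the spread, at 20.7 to 64.6 and 54.9 to 61.4 (adjusted p = 0.407). Its other measures were lower in SKBR3 without overlap. Fold enrichment was 1.93 to 2.89 against 4.70 to 5.44, and width 255 to 1231 bp against 1327 to 1681 bp. The window held 4 regions lower and 1 higher in SKBR3 of 7 tested.

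RANK had its regions near or past its 3′ end. The strongest, chr18:62425124-62426278, stood at 68.5 to 82.3 in SKBR3 and 40.9 to 53.8 in MDA-MB-453 (29.0 ± 3.1, adjusted p = 0.000287), and chr18:62435307-62438125 at 55.7 to 60.3 and 5.90 to 15.3 (47.9 ± 2.5, adjusted p = 1.27e-05). Around TNFR2, all peaks in MDA-MB-453 were in introns or exons of the neighbours TNFRSF8 and VPS13D. The largest called differences there were 23.1 ± 4.8 points at chr1:12142849-12145397 (adjusted p = 0.00604) and 16.3 ± 1.5 at chr1:12131114-12137683 (0.000176), both in TNFRSF8. The highest region, chr1:12229904-12235575 at a VPS13D promoter, ranked at 95.8 to 98.7 in SKBR3 and 90.4 to 93.4 in MDA-MB-453. In the TNFSF12 window, chr17:7589790-7592765 at the promoters of FXR2 and SOX15 ranked at 60.8 to 68.8 in SKBR3 and was in no MDA-MB-453 list (64.6 ± 2.5, adjusted p = 3.92e-06). The region at TNFSF13 and SENP3 nearest to the TWEAK gene ranked at 82.3 to 90.4 and 69.8 to 73.8 (15.5 ± 1.4, adjusted p = 0.000128), and the highest, chr17:7571035-7588888 at CD68, EIF4A1, MPDU1 and SENP3, at 93.0 to 96.5 and 88.5 to 92.5.

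The length of each window covered by peaks gave a summary per gene. LTBR had 48.1 and 35.9 kb in untreated SKBR3, 40.5 and 36.9 kb with TWEAK, 10.9 and 10.4 kb in untreated MDA-MB-453 and 11.4 and 10.0 kb with TWEAK. TNFRSF1A, which shares much of that stretch, had 62.1, 49.8, 54.9 and 54.3 kb in SKBR3 and 20.3, 18.8, 21.8 and 18.4 kb in MDA-MB-453. TNFRSF12A had 40.6, 39.4, 42.7 and 37.7 kb against 23.9, 25.1, 24.1 and 24.2 kb. For each of these 3 genes the lines were far apart and the treatments overlapped in SKBR3. TNFRSF10B had 21.4 and 17.7 kb (untreated) and 20.4 and 19.1 kb (TWEAK) in SKBR3 against 8.94 to 10.2 kb in MDA-MB-453. TNFRSF11B had 1.23 and 4.56 kb (untreated) and 0.731 and 6.11 kb (TWEAK) in SKBR3 against 8.44 to 8.78 kb in MDA-MB-453. In SKBR3, osteoprotegerin again separated by replicate number. TNFRSF1B ranged from 9.7 to 14.5 kb in SKBR3 and from 7.03 to 7.62 kb in MDA-MB-453, and TNFSF12 from 18 to 25.4 kb and from 13.3 to 16.4 kb. For TNFRSF10A (6.27 to 13.1 kb and 8.56 to 9.81 kb), TNFRSF11A (3.96 to 6.95 kb and 3.06 to 4.05 kb) and TNFRSF21 (0 to 2.44 kb and 0.343 to 0.669 kb) the lines overlapped.

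On the log2 scale, with 1000 bp added to each length, SKBR3 exceeded MDA-MB-453 by 1.82 ± 0.10 (SE) for LTBR (adjusted p = 2.52e-06), 1.43 ± 0.09 for TNFRSF1A (3.87e-06), 0.96 ± 0.08 for TNFRSF10B (1.79e-05) and 0.70 ± 0.06 for TNFRSF12A (1.94e-05; limma over 17541 genes). TNFRSF1B at 0.73, TNFSF12 at 0.53 and TNFRSF11A at 0.43 also passed, and TNFRSF11B was lower in SKBR3 by −1.45 ± 0.45 (adjusted p = 0.0203). TNFRSF21, at 0.24, and TNFRSF10A, at −0.05, did not pass. The genes higher in SKBR3 were 7 of 10, against 48.6% of all genes, and 1 of 10 was lower, against 27.2%. The median was 0.61 over the 10 genes and 0.24 over all genes tested. With each list scaled to the same total covered length, the median of all genes moved by −0.40 to −0.16. TNFRSF12A then stood at 0.26 (adjusted p = 0.0134), LTBR at 1.39, TNFRSF1A at 1.00, TNFRSF10B at 0.55 and TNFRSF1B at 0.32, and these still passed. TNFSF12 (0.10, adjusted p = 0.418) and TNFRSF11A (0.07, adjusted p = 0.692) no longer passed, and TNFRSF10A became lower in SKBR3 (−0.46, adjusted p = 0.044).

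Without SKBR3 untreated replicate 1, TNFRSF10A was called lower in SKBR3 (−0.29, adjusted p = 0.019), and without replicate 2 it stood at 0.19. The calls for RANK and osteoprotegerin were the least secure. TNFRSF11A was no longer called without any 1 of the 4 MDA-MB-453 libraries, without SKBR3 untreated replicate 2 or without SKBR3 TWEAK replicate 2, at 0.26 to 0.46 and adjusted p between 0.0523 and 0.107. TNFRSF11B was no longer called without any 1 of the MDA-MB-453 libraries or without SKBR3 untreated replicate 1, with adjusted p between 0.0624 and 0.0706.

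**Figure D4:**
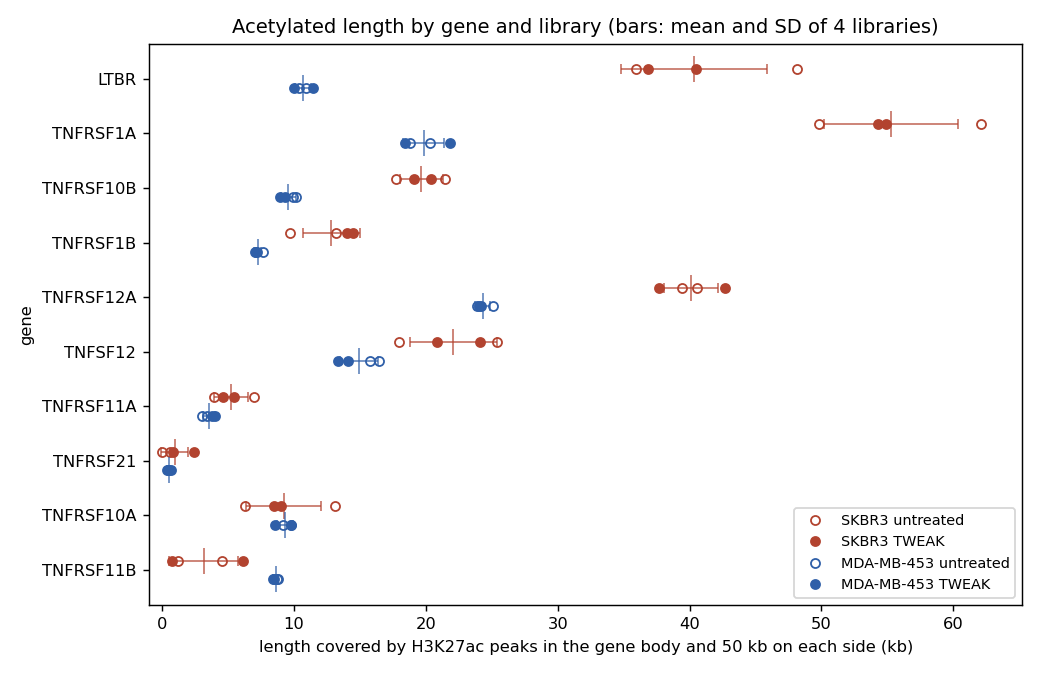
Length covered by H3K27ac peaks in each gene's window, in kb, for 4 SKBR3 libraries (red) and 4 MDA-MB-453 libraries (blue); open circles are untreated, filled circles TWEAK, and bars the mean and SD of the 4. LTBR and TNFRSF1A show the widest separation of the lines, and TNFRSF11B is the gene with MDA-MB-453 to the right.

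The rest of the family was counted in the same way, and neighbouring genes of the lists share windows, so the counts are not of independent genes. Of 20 other TNF receptor genes, chosen as a list, 18 could be tested: covered length was higher in SKBR3 for 11, lower for 3 and not called for 4, with a median log2 difference of 0.74. A promoter peak in all 8 lists was found for 1 of the 20, RELT, and for 16 there was none in any list, where 5 of the 10 genes above had one throughout. The lowest adjusted p by line were those of TNFRSF25 (DR3, another death receptor, 2.04 on the log2 scale), TNFRSF14 (HVEM, 1.86), TNFRSF13B (TACI, 1.66) and RELT (1.79), all higher in SKBR3. Among 17 ligand genes, 8 of 16 tested were higher in SKBR3, 4 lower and 4 not called, with a median of 0.17. TNF, LTA and LTB, 3 of those not called, are 1 locus with the same values, and TNFSF13 has those of TNFSF12. Of all genes, 48.6% were higher and 27.2% lower. TNFSF18 (2.42) and TNFSF9 (1.39) were higher, and TNFSF8 (−2.42) and TNFSF11 (−1.31), the RANK ligand that osteoprotegerin binds, were lower in SKBR3. TNFSF10 (TRAIL), the ligand of DR4 and DR5, singled out after its values were seen, had a promoter peak in all MDA-MB-453 lists and no SKBR3 list. The share of all promoters with this pattern is not given. In covered length its window went the other way, at a mean of 25.6 kb in SKBR3 and 22.1 kb in MDA-MB-453 (log2 0.20, limma adjusted p = 0.0179). None of either list was called for TWEAK in covered length in either line.

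TWEAK treatment was set against untreated cells in each line, since the ligand acts through a receptor whose own gene is one of those described. At the promoters, TWEAK and untreated SKBR3 libraries did not overlap in rank for 3 of 6 genes (33.8% of all promoters), all higher with TWEAK, and in MDA-MB-453 for 2 of 6 (37.8%). For TNFRSF12A the change was 2.17 ± 1.35 points in SKBR3 (adjusted p = 0.496) and 2.04 ± 1.35 in MDA-MB-453 (adjusted p = 1). For TNFRSF1A it was 1.79 ± 0.92 in SKBR3 (adjusted p = 0.407), and for TNFRSF21 26.5 ± 10.5 (adjusted p = 0.258). Widths did not overlap for 1 of 6 in SKBR3 (TNFRSF12A, 5950 and 5682 bp untreated and 4869 and 5073 bp with TWEAK; 32.3% of all promoters) and for 0 of 6 in MDA-MB-453 (34.0%). With 2 libraries against 2, the exact permutation test cannot go below 0.333, so no single promoter could pass it. With 1 library left out, ranks did not overlap for up to 6 of 6 in SKBR3 (without TWEAK replicate 2) and 5 of 6 in MDA-MB-453 (without untreated replicate 1). A group of 1 library separates from a group of 2 more easily. The share of all promoters in these settings is not given, so no effect of TWEAK is read from them.

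By covered length, 0 of the 10 genes were called for TWEAK in either line (limma; in SKBR3, 1.37% of all genes were called higher and 0.182% lower, and in MDA-MB-453 0). At an unadjusted p under 0.05 SKBR3 had 1 such gene and MDA-MB-453 had 0. The log2 changes ran from −0.10 to 0.99 in SKBR3, the highest being TNFRSF21 (0.99 ± 0.33, adjusted p = 0.216; 1.46 with adjusted p = 0.0344 without SKBR3 TWEAK replicate 1), and from −0.22 to 0.21 in MDA-MB-453 (lowest adjusted p = 1). For TNFRSF12A they were 0.00 ± 0.08 and −0.02 ± 0.08. The difference of the changes between lines was called for 0 genes (0.0171% of all genes higher, 0 lower; lowest adjusted p of the 10 = 0.663, and 0 with an unadjusted p under 0.05).

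By region, 2 of the 53 tested ranked higher with TWEAK in SKBR3, where 4.37% of all regions did, and 0 ranked lower, where 1.01% did. Of the 53, 9 had an unadjusted p under 0.05, where 18.4% of all regions did. In MDA-MB-453 0 were called in either direction, as in the whole genome (0 of 52751), with 3 of the 53 at an unadjusted p under 0.05 (4.28% of all regions) and changes between −11.9 and 13.5 points. With 1 library left out, the number called higher in SKBR3 was 5 without untreated replicate 2 or TWEAK replicate 1 and 1 without any 1 of the MDA-MB-453 libraries. The number called lower was 1 without SKBR3 untreated replicate 1, 4 without TWEAK replicate 1 and 3 without TWEAK replicate 2. With all libraries, the 2 called regions were no larger a share of those tested than in the genome. With 1 library left out, the share of all regions called is not given, so those counts are not set against the genome.

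**Figure D5:**
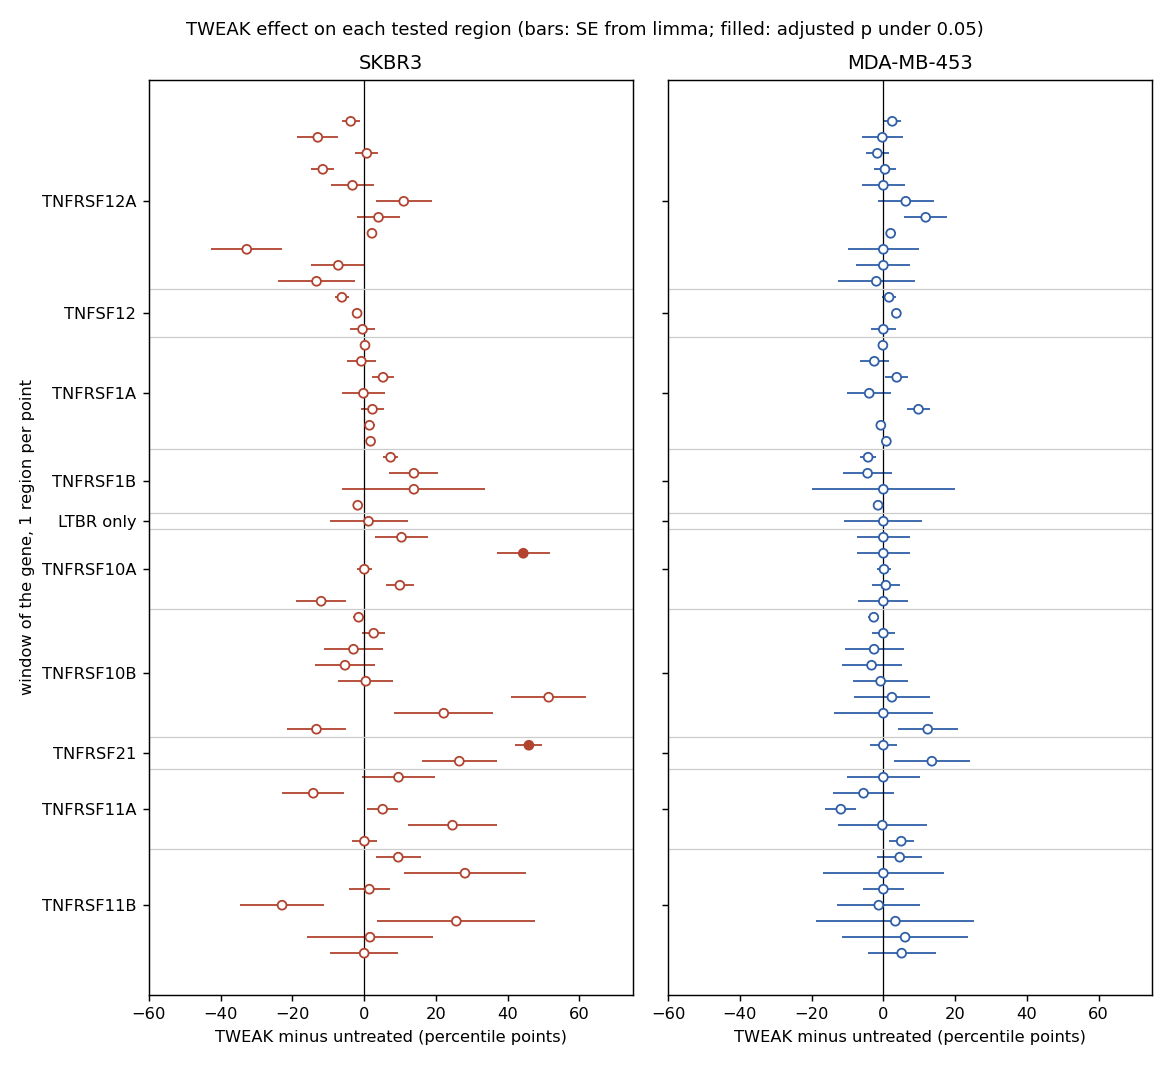
Change in percentile with TWEAK (points) for each of 53 tested regions, grouped by gene window, in SKBR3 (left) and MDA-MB-453 (right), with SE bars from limma; regions shared by TNFRSF1A and LTBR are under TNFRSF1A. The 2 filled points, in the TNFRSF21 and TNFRSF10A windows of SKBR3, have an adjusted p under 0.05, and their MDA-MB-453 changes are 0.

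The first called region lay 48.2 kb beyond the 3′ end of TNFRSF21, 127 kb from its start and outside protein-coding genes, at chr6:47181827-47183374. It was in neither untreated SKBR3 list, stood at 43.5 and 48.3 in the TWEAK lists with widths of 535 and 1548 bp, and was in no MDA-MB-453 list. The change was 45.9 ± 3.78 points (adjusted p = 0.0037), and it differed from that in MDA-MB-453 by 45.9 ± 5.35 (adjusted p = 0.0262). This was the 1 region of 53 called for a difference of the TWEAK effect between lines, against 1.22% of all regions higher and 0.106% lower, and 8 of the 53 had an unadjusted p under 0.05, where 13.2% of all regions did. The region was at 0 in 6 of 8 lists and passed the filter on low ranks only through the SKBR3 TWEAK lists. The 3 groups at 0 add no spread to the SE, and the difference between lines repeats the SKBR3 change, so the 2 adjusted p are not independent of each other. With SKBR3 libraries alone in the fit the change had an adjusted p of 0.518, and 0 of 52751 regions in the genome were called (4382 at an unadjusted p under 0.05). The fit over all libraries shares 1 estimate of spread, to which the closer MDA-MB-453 replicates contribute. Neither TWEAK peak had a q-value under 1e-05. The difference between lines was also not called with the replicate block (adjusted p = 0.129) or with lists of equal size (0.0862).

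The sequence of this region is shown at its NF-κB and AP-1 motif matches, since both are factors downstream of Fn14. Capitals mark the match in each stretch of 120 bases, and both matches lay inside the peak of TWEAK replicate 2 and outside the narrower peak of TWEAK replicate 1.
NF-κB match (chr6:47182801-47182920, plus strand): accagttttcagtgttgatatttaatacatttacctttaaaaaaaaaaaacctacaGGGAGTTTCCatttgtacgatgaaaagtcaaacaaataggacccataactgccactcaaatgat
AP-1 match (chr6:47182057-47182176, plus strand): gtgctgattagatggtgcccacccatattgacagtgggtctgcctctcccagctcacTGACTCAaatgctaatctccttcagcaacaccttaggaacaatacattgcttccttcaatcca

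In the 1000 bp at the midpoint of each region, 19 of the 70 regions (27.1%) held an NF-κB motif on either strand, where 13.8% of all 76044 regions did, and 21 (30.0%) held an AP-1 motif, where 23.01% did. The TNFRSF21 region was 1 of 4 with both. The others were the promoter region of TNFRSF12A, the region upstream of TNFRSF10B described next and the highest region of the TNFRSF1A window. The 1000 bp were taken whatever the length of a region, so a match can lie outside a short region. Neighbouring regions can also share a match. A match is a description of the letters and was not tested as a binding site.

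The other called region, chr8:23217776-23221267, was in an intron of TNFRSF10A (DR4), 5.6 kb from its start, and was also higher in SKBR3 than in MDA-MB-453 (33.4 ± 5.2, adjusted p = 0.00168). It stood at 22.4 and 0 in untreated SKBR3 and 52.6 and 58.5 with TWEAK, with no peak in MDA-MB-453 (44.3 ± 7.34, adjusted p = 0.0286). Like the TNFRSF21 region, it passed the filter on low ranks only through the SKBR3 TWEAK lists. The MDA-MB-453 groups at 0 add no spread to either SE. The call was lost without either SKBR3 TWEAK library or any 1 MDA-MB-453 library (adjusted p between 0.0576 and 0.123), with no filter on low ranks (0.0513) and with the SKBR3 libraries alone (0.681). Nearby, chr8:23073961-23075384, 4.93 kb upstream of TNFRSF10B (DR5), stood at 33.9 and 0 in untreated and 66.2 and 70.5 in TWEAK-treated SKBR3 (51.4 ± 10.5, adjusted p = 0.0518). It did not pass the test, but did without SKBR3 untreated replicate 1 (adjusted p = 0.00679) or replicate 2 (0.0225). With only peaks of a q-value under 1e-05, the number called higher was again 2, but these were other regions. They were the one upstream of TNFRSF10B (34.8 ± 4.3, adjusted p = 0.0127) and, in the Fn14 window, chr16:2989960-3001049 at a GREP1 promoter (26.3 ± 4.7, adjusted p = 0.039). With all peaks the latter changed by 11.03 ± 7.8 (adjusted p = 0.559).

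By presence alone, with peaks merged within a line, a region counted as gained if it appeared in both lists after TWEAK and in none before, and as lost in the reverse case. In SKBR3 1 region of 68 was gained, the TNFRSF21 region (4.61% of all SKBR3 regions), and 1 was lost (1.40%). The lost region, chr1:12238668-12239785 in an intron of VPS13D in the TNFRSF1B window, ranked at 6.94 and 25.2 before TWEAK. In MDA-MB-453 1 of 45 was gained (1.33%), chr12:6312419-6313465 near PLEKHG6 in the TNFRSF1A window, at 9.68 and 9.91, and 1 was lost (1.30%), chr17:7586601-7587140 in the TNFSF12 window, at 0.985 and 0.431. The regions gained and lost were different in the lines, and those of MDA-MB-453 were among its weakest peaks. With 1 SKBR3 library left out, 4 to 5 regions counted as gained and 1 to 7 as lost, the 7 without untreated replicate 2. The share of all SKBR3 regions in these settings is not given.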

How the data were processed

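H3K27ac ChIP-seq peak lists of 8 libraries were used; the 2 inputs have no list. The authors used Bowtie2 for mapping to hg38 and MACS2 with input subtraction for a peak list per library, from which blacklisted regions were taken out; versions are not given in the sources used here. Each deposited list of 9 columns gives a score and a fold enrichment ratio, followed by −log10 p-values and q-values. Read depth is unknown, so a missing peak may lie just under the threshold.

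Peaks on chromosomes 1 to 22 and X were ranked by score within their list. Peaks of 8 lists overlapping by 1 bp were merged. Percentiles of regions (mean at least 5) and log2(covered bp + 1000) of windows (mean at least 500 bp; GENCODE release 44) were fitted with limma 3.58.1 in R 4.3.3 with a mean per group and a mean-variance trend, Benjamini-Hochberg adjusted at 0.05, over the whole genome. All groups shared 1 estimate of spread; fits with the libraries of each line alone were alternatives. Scripts were tested on simulated data with the same spread in all groups and no missing peaks, unlike these lists. That test does not cover the SKBR3 calls made with a shared spread. Single promoter values used exact two-sided permutation tests. Named genes were all 10 genes, with their promoter regions, regions called or gained or lost with TWEAK, the highest region and the 2 largest called line differences per window; a region upstream of TNFRSF10B that missed the threshold was added after its values were seen. From other family lists, the 4 genes of lowest adjusted p were named. One region that this rule names, in the TNFRSF10B window, is not reported here. Genes and lists were chosen with earlier results of these data known. Alternatives covered the threshold, list size, merging, ranking, filters, window size, scaling, the block and each library left out. The study compared reads with DiffBind; peak ranks were compared here.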

Additional observations from a re-analysis of the deposited data

Results flagged for a closer look

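The region 48.2 kb beyond the 3′ end of TNFRSF21 is listed for a closer look because its change with TWEAK differed between the lines: it rose by 45.9 points in SKBR3, where it appeared in both lists after TWEAK and in none before, and was in no MDA-MB-453 list. The interaction term in limma gave an adjusted p of 0.0262, and between 1.23e-05 and 0.118 when 1 library was left out, with p over the threshold without any 1 of the MDA-MB-453 libraries. It was not called with the replicate block (adjusted p = 0.129, with 0 of all regions called) or after cutting the lists to the same number of peaks (0.0862), and with strong peaks alone 0 regions of the windows were called. Since the region was at 0 in all MDA-MB-453 and untreated SKBR3 lists, this term repeats the SKBR3 change.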

How the results depend on the processing

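Read depth is unknown, so a missing peak limits presence calls. Under the stricter threshold (q under 1e-05), SKBR3 gained 2 and lost 0 regions of the windows, MDA-MB-453 lost 0, 2 were specific to MDA-MB-453, 16 ranked higher by line, 2 genes had lower covered length in SKBR3, 0 regions were called for the difference of TWEAK effects, and 1 promoter rank did not overlap with TWEAK in SKBR3. With lists cut to equal size, MDA-MB-453 lost 0, 4 regions were specific to SKBR3 and 2 to MDA-MB-453, 1 ranked lower with TWEAK in SKBR3, 1 was called lower for the difference of TWEAK effects, and the TNFRSF21 region lost that call (27.6 points, adjusted p = 0.0862). With windows of 10 kb on each side, gained and lost were 0 in both lines, 2 regions were specific to SKBR3 and 0 to MDA-MB-453, 1 ranked higher with TWEAK in SKBR3, 11 ranked higher and 3 lower by line, covered length was higher for 4 genes and lower for 0, and the difference of TWEAK effects was called for 0; TNFRSF10A turned to 0.030. With 100 kb, SKBR3 lost 2, MDA-MB-453 gained 2, 3 were specific to MDA-MB-453 and 17 ranked lower by line. When a peak had to cover 50% of a region, SKBR3 gained 2 and lost 3, MDA-MB-453 gained 0 and 3 were specific to it. With peaks up to 1 kb apart merged, 4 were specific to SKBR3, and merging over all 8 lists left 0 lost in MDA-MB-453. With no filter, 1 region ranked higher with TWEAK in SKBR3 and 0 genes had lower covered length by line. Scaling to the same total gave 2 such genes. A promoter distance of 2.5 kb gave 1 width without overlap for TWEAK in MDA-MB-453. The SKBR3 libraries alone gave 0 regions higher with TWEAK, the MDA-MB-453 libraries alone 1, at PLEKHG6 (9.80 points, adjusted p = 0.0162), and the untreated libraries alone 5 lower by line, with TNFRSF21 at −0.20 in covered length. The cause of these moves was not tested. The share of all regions or genes in these settings is not given, so the counts show only how far they moved.

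With the replicate number as a block, 1 region ranked higher with TWEAK in SKBR3 (TNFRSF21, adjusted p = 0.0409; the TNFRSF10A region had 0.0998), 1 gene had higher covered length (TNFRSF21, 0.99, adjusted p = 0.0456), and the difference of TWEAK effects was called for 0 (0 of all regions; TNFRSF21, adjusted p = 0.129); in SKBR3 1250 of all regions were called instead of 2838. Deviations of libraries with the same number correlated at 0.32 in SKBR3 and −0.05 in MDA-MB-453 by rank, and at 0.46 and −0.04 by covered length; with 2 pairs per line and no label that says what a number marks, the libraries only share a number.

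Leaving out 1 library, which left the other to stand for its group, gave 4 to 5 gained and 1 to 7 lost regions in SKBR3, 1 to 2 gained and 1 to 2 lost in MDA-MB-453, 7 to 9 specific to SKBR3 and 1 to 2 to MDA-MB-453. Regions higher with TWEAK in SKBR3 ranged from 1 to 5 and lower from 0 to 4, genes with higher covered length from 0 to 1, and for the difference of TWEAK effects regions called higher or lower from 0 to 3 each. By line, 29 to 34 regions were higher and 4 to 9 lower, and 6 to 7 genes higher and 0 to 1 lower. Promoters without overlap by line were 3 to 4 in rank and 4 to 5 in width, with TWEAK in SKBR3 3 to 6 and 2 to 6, and in MDA-MB-453 3 to 5 and 1 to 5. The share of all promoters, regions or genes is not given with 1 library left out. These ranges show only how far the counts moved. TNFRSF10A ranged from −0.29 to 0.19. The other alternatives kept counts within 1.5 times, though not always the same regions (under the stricter threshold neither of the 2 regions called with TWEAK in SKBR3 was called), and of the values for single genes and regions 163 kept direction and side of the threshold, 37 lost a call, 4 gained one and 3 changed sign (TNFRSF10A at 0.030 and 0.19 and TNFRSF21 at −0.20).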
